A study of Mus musculus with 12 samples.

Results

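The genes described here are 10 genes of the cellular response to low oxygen: Hif1a, Epas1, Egln1, Egln3, P4ha1, Bnip3, Adm, Ddit4, Ndrg1 and Ankrd37. They were taken by symbol from a table of 21899 genes, and each symbol matched 1 row. RNA of colon tissue was sequenced from 12 mice, all of which had received 2.5% DSS for 7 days; DSS is dextran sulfate sodium, which damages the gut epithelium and is used to induce colitis. In 6 mice, labelled CKO, Pck1 had been deleted in intestinal epithelial cells; 6 littermates labelled WT served as controls. The product of Pck1 is a cytosolic enzyme of gluconeogenesis, phosphoenolpyruvate carboxykinase. For the promoter that drove the deletion and for the strain, age and sex of the mice, nothing is given in the sources used here, and no mice without DSS were analysed. Each library came from the RNA of whole colon tissue, so a level sums over epithelium, vessels, stroma and immune cells, and fewer cells of a type cannot be told apart from less RNA per cell.

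In cells with enough oxygen, prolyl hydroxylases of the Egln family mark the alpha subunits of hypoxia-inducible factor (HIF), encoded by Hif1a and Epas1, and the Vhl ubiquitin ligase then has them destroyed. When oxygen falls, the subunits persist, pair with Arnt and bind short DNA elements near their target genes. This control acts on the protein, so the RNA of Hif1a or Epas1 does not report HIF activity, whereas the RNA of target genes rises with it. The colon epithelium lives at low oxygen even in health, and HIF is known there for its part in barrier function. Of the other 8 genes, Egln1 and Egln3 encode 2 of the hydroxylases and are themselves HIF targets, which makes a feedback loop. P4ha1 encodes a collagen prolyl 4-hydroxylase subunit, Bnip3 a mitochondrial protein that promotes mitophagy, and Adm the vessel-relaxing peptide adrenomedullin. Ddit4 encodes REDD1, a brake on mTORC1, Ndrg1 is a stress- and differentiation-linked gene, and Ankrd37 is an ankyrin-repeat gene that responds to HIF.

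The sequence that HIF binds has the core ACGTG or GCGTG, and all 8 of the genes whose promoters could be read held 1 or more such cores. Promoter sequences came from RefSeq (build GRCm38.p6) and matched 8 of the 10 genes, all but Epas1 and Ndrg1. The 250 bases before each annotated start were searched for ACGTG and GCGTG on both strands, so CACGT and CACGC on the gene strand count as well, and overlapping matches count separately. Among all 32851 promoters of the same length, 38.6% held one of these cores. The core with A first was present in 7 of the 8, all but Adm, and in 16.6% of all promoters. The stretches below hold the cores that lie outside annotated exons. They are shown for the members with the largest differences between the genotypes, for Hif1a, and for Ankrd37, which carried 4 cores, 3 of them outside annotated exons, and showed the smallest difference relative to its error. Each runs 5′ to 3′ on the gene strand, with the cores in capitals.
P4ha1 (chr10:59323118-59323295, + strand): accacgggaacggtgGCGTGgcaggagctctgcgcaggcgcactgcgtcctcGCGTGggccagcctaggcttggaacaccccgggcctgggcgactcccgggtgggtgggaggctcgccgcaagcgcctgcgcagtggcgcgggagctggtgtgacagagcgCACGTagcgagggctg
Bnip3 (chr7:138909522-138909638, - strand): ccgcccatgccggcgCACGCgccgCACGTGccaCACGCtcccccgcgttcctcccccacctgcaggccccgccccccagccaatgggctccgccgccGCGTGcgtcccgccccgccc
Adm (chr7:110627552-110627622, + strand): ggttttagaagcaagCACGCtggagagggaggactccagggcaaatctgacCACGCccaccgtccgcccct
Ddit4 (chr10:59951866-59951972, - strand): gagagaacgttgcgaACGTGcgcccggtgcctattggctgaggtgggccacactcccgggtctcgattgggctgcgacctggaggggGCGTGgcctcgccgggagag
Egln3 (chr12:54204084-54204118, - strand): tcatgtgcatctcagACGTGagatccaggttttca
Hif1a (chr12:73907717-73907816, + strand): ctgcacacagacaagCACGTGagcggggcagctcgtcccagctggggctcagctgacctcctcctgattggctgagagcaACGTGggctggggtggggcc
Ankrd37 (chr8:45999983-46000100, - strand): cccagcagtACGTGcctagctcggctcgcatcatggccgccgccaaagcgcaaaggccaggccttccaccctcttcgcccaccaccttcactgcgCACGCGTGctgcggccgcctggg
The P4ha1 stretch held 3 cores, the Bnip3 stretch 5, of which 4 lie close together, and the Adm stretch 2, both on the opposite strand. Egln1, not printed, held 2. A match is a description of letters and was not shown here to be bound.

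**Figure D1:**
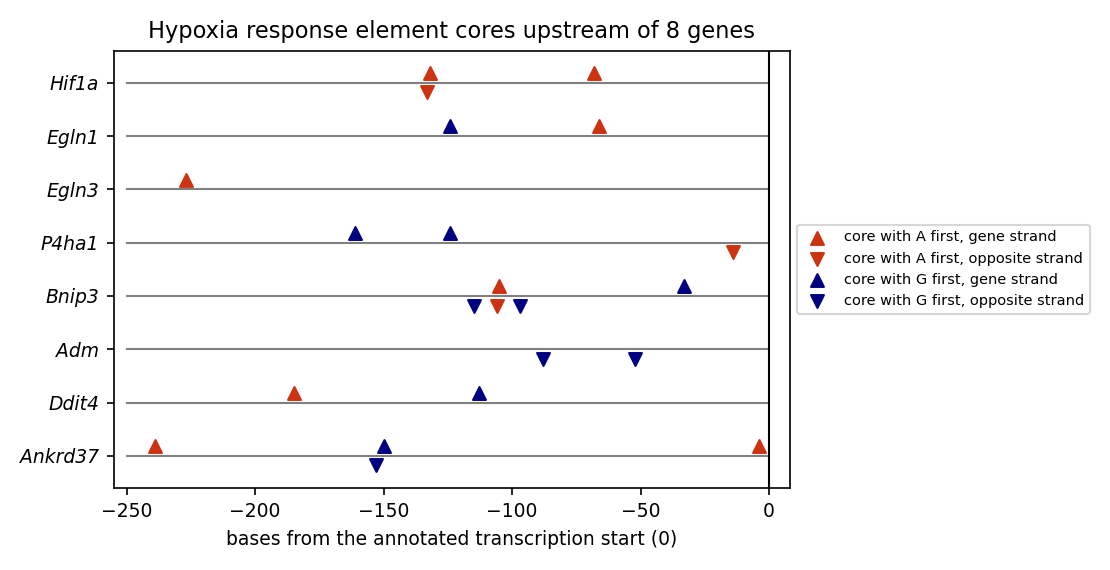
Positions of the hypoxia response element cores in the 250 bases before the annotated start of 8 genes; the x axis is the distance in bases from the start, each triangle sits at the middle base of 1 core, its colour gives the first base and its direction the strand. Egln3 held 1 core and Bnip3 held 5, 4 of them with first bases at positions -117 to -99 from the start.

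The libraries held 15348192 to 19138507 counts, and the 10 genes held between 63 and 9292 counts in a library. Pck1 checked the labels: it stood at 2.28 to 7.32 CPM (counts scaled to a common library size) in the knockout libraries and 34.5 to 84.7 CPM in the controls. All 10 genes were among the 14393 that passed the low-count filter. Over all of these, 4 genes were higher and 4 lower at an adjusted p under 0.05.

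All 10 genes had a higher mean level in the knockout colon than in the control colon, but none passed the test across all genes. By the quasi-likelihood test of edgeR, adjusted after Benjamini and Hochberg, 0 of 10 were called higher, where 0.0278% of all tested genes were, and 0 of 10 lower, where 0.0278% were. At an unadjusted p under 0.05, 6 of 10 were higher and 0 lower, against 13.1% and 9.48% of all tested genes. The same shares belong beside each later count at that threshold over the 12 libraries. The 6 were P4ha1, Bnip3, Epas1, Adm, Ddit4 and Egln3. The median log2 fold change of the 10 was 0.45, and that of all tested genes was -0.03. In no member did the groups separate fully in CPM, as they did upward in 0.882% and downward in 0.639% of tested genes. These genes were chosen with results of the same libraries known, so the counts describe them and test nothing about them as a set.

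**Figure D2:**
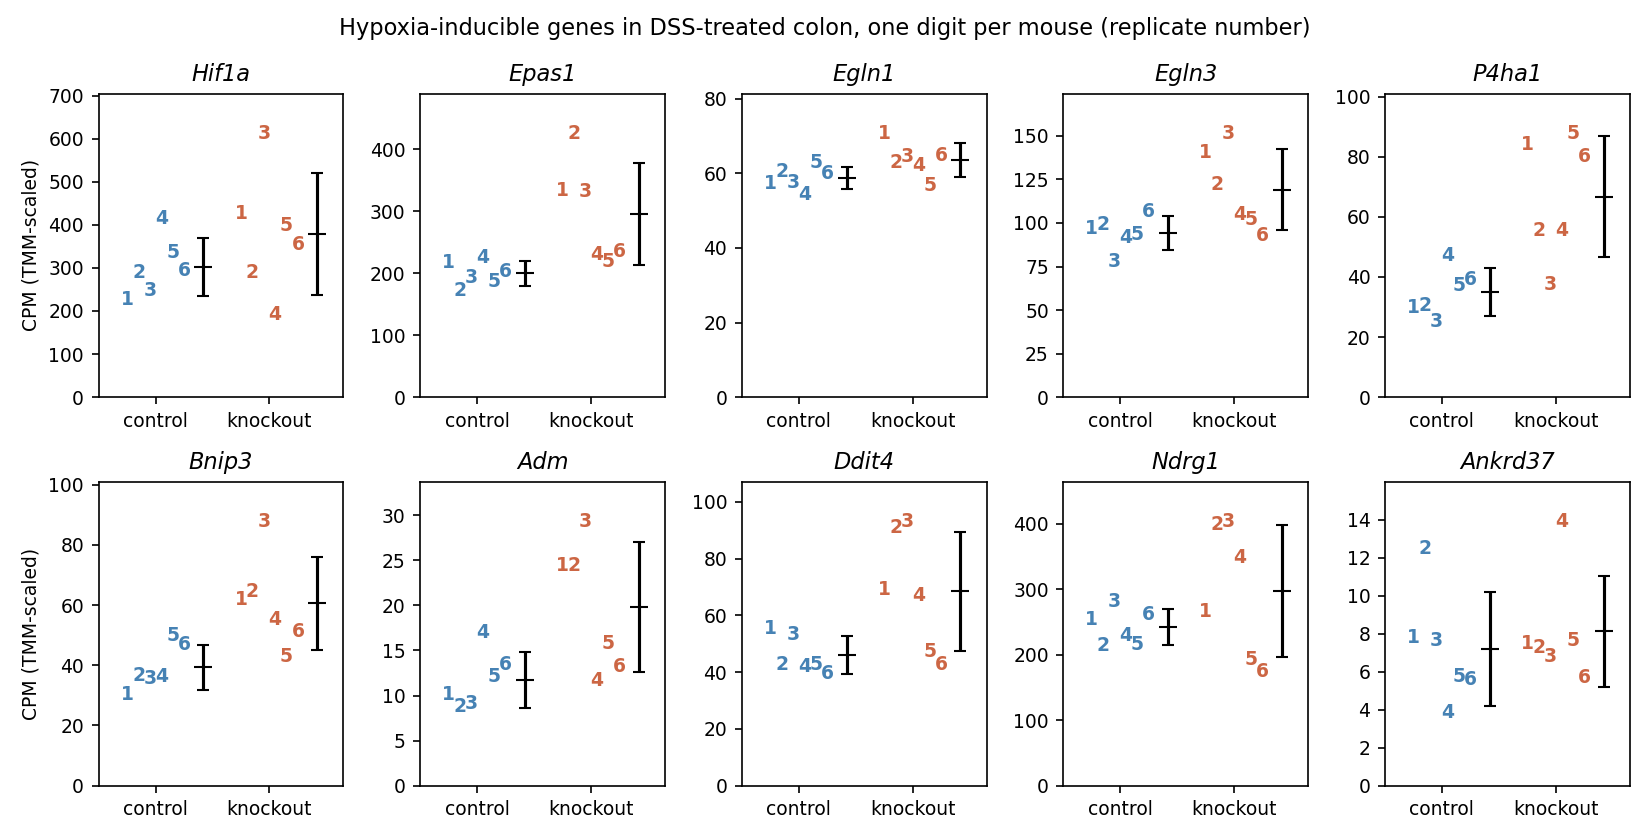
Level of each gene in CPM, with 1 digit per mouse giving its replicate number; the bars beside the digits are the mean and SD of 6 mice. Knockout mouse 3 stands highest in 6 of the 10 panels, whereas in P4ha1 it is the lowest of the knockout mice.

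Hif1a and Epas1 are described first, as the oxygen-regulated subunits. Hif1a ran from 191 through a median of 376 to 613 CPM in the knockout and from 226 through 292 to 415 CPM in the control. The widest spread lay within the knockout, whose mouse 4 was the lowest and mouse 3 the highest of all 12, and the groups overlapped almost throughout. The means were 379 ± 142 and 301 ± 67.5 CPM (SD, n = 6 each), for a log2 fold change of 0.33 ± 0.23 (SE) with an edgeR adjusted p of 0.43. Without knockout replicate 3 the log2 fold change of Hif1a was 0.14, without knockout replicate 4 it was 0.46, and with neither mouse numbered 4 it was 0.58 (edgeR adjusted p = 0.0636).

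Epas1, which encodes HIF-2 alpha and is abundant in endothelium, ran from 219 through 284 to 426 CPM in the knockout and from 173 through 198 to 226 CPM in the control. Knockout mice 1, 2 and 3, at 333, 426 and 332 CPM, lay far above every control, whereas knockout mice 4, 5 and 6 stood at 219 to 235 CPM, next to the highest control. The means were 296 ± 82.0 and 199.6 ± 19.7 CPM (SD, n = 6), for a log2 fold change of 0.57 ± 0.16 (SE) with an edgeR adjusted p of 0.0693. The exact two-sided permutation test of log2 CPM gave p = 0.00433, or 0.131 adjusted over all tested genes, the smallest adjusted value that any gene had. Epas1 passed without knockout replicate 4 (edgeR adjusted p = 0.0342), where 6.02% of all genes were called higher. That was 1 of the 12 fits with 1 library left out, over which its adjusted p ran up to 0.159.

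Markers of endothelium moved in the same direction. All 8 of the endothelial list (Pecam1, Cdh5, Vwf, Plvap, Tie1, Emcn, Esam and Cldn5) had a log2 fold change above 0, with a median of 0.62, and 7 had an unadjusted edgeR p under 0.05. Their summed level was 327 to 669 CPM in the knockout and 224 to 338 CPM in the control, and none was at 0 in any library. Knockout mouse 2 was the highest on both Epas1 and the endothelial sum. The part of endothelial content in the Epas1 difference was not tested.

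The hydroxylases Egln3 and Egln1 had smaller log2 fold changes than Epas1, and that of Egln3 was close to the 0.33 of Hif1a. Egln3 ran from 93.1 through 113 to 152 CPM in the knockout and from 77.6 through 95.2 to 107 CPM in the control, and 3 knockout mice (1, 2 and 3) exceeded every control. Its means were 119 ± 23.3 and 94.3 ± 9.75 CPM (SD, n = 6), for a log2 fold change of 0.34 ± 0.12 (SE) with an edgeR adjusted p of 0.13. Egln1, the main oxygen sensor of the family, was the steadiest of the 10 genes, with 56.8 through 63.7 to 70.8 CPM in the knockout and 54.5 through 58.7 to 62.8 CPM in the control. Its log2 fold change was 0.12 ± 0.07 (SE), with an edgeR adjusted p of 0.34. On the deposited TPM scale Egln1 stood at 33.4 ± 2.79 and 29.5 ± 0.665 (SD, n = 6). On that scale every knockout library lay above every control, though the lowest knockout and the highest control nearly met, at 30.39 and 30.37 TPM. The groups overlapped in CPM, and the share of all genes that separate fully in TPM was not counted. The mean difference of Egln1 was 0.17 in log2(TPM + 1) and 0.11 in log2 CPM. The exact permutation p of log2(TPM + 1) was 0.00216, the smallest that 924 arrangements can give. After adjustment over all tested genes it was 0.130, the smallest adjusted value that any gene had.

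The largest difference belonged to P4ha1, whose product hydroxylates proline in collagen chains so that they can form a stable triple helix. P4ha1 ran from 37.5 through 67.7 to 87.8 CPM in the knockout and from 25.1 through 33.8 to 47.2 CPM in the control. Knockout mice 1, 5 and 6 stood at 84.2, 87.8 and 79.9 CPM, well above every control, mice 2 and 4 at 55.5 and 55.4 CPM, and mouse 3, at 37.5 CPM, lay among the controls. The means were 66.7 ± 20.2 and 34.9 ± 7.97 CPM (SD, n = 6), which is 1.91 times the control mean and a log2 fold change of 0.94 ± 0.21 (SE). The edgeR adjusted p was 0.0531, so P4ha1 missed the threshold narrowly. It ranked 154 by unadjusted p among the genes tested. It passed when knockout replicate 4 (adjusted p 0.0272), control replicate 4 (0.0202) or control replicate 6 (0.0497) was left out of the edgeR fit. Those were 3 of the 12 fits with 1 library left out, over which its adjusted p ran up to 0.133. In those 3 fits 6.02%, 5.03% and 1.88% of all genes were called higher.

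Other enzymes of collagen and matrix maturation were higher together with P4ha1. Of 9 genes in the list of hypoxia-inducible collagen and matrix enzymes, all were above 0, with a median log2 fold change of 0.96. Over all genes 0 passed, and 7 had an unadjusted edgeR p under 0.05, beside 13.1% of all tested genes higher. P4ha2, a related isoform of P4ha1, stood at 13.7 ± 4.42 against 6.49 ± 2.31 CPM (means of knockout and control, each with SD, n = 6). Loxl2, a lysyl oxidase that crosslinks collagen, was at 179 ± 59.9 against 92.4 ± 20.4 CPM, and Lox was at 140.4 ± 60.5 against 49.3 ± 25.3 CPM. Both were named with their values known. Loxl2 was the 1 gene of the 9 whose groups did not overlap, as those of 0.882% of all tested genes did not in the upward direction. Angptl4, a lipoprotein lipase inhibitor, had a log2 fold change of 1.91 ± 0.52 (SE). Ero1a, the oxidase of protein folding in the endoplasmic reticulum, was at 0.34 ± 0.16. The other listed genes of the prolyl 4-hydroxylase family differed less than P4ha1 and P4ha2. P4ha3 was at 0.22 ± 0.28, P4htm at 0.05 ± 0.25, Ogfod1 at 0.03 ± 0.09 and Ogfod2 at -0.20 ± 0.12. Fibroblast markers were higher as well, 5 of 6 at an unadjusted edgeR p under 0.05, with summed levels of 4073 to 9775 CPM in the knockout and 2492 to 5045 CPM in the control and none at 0. Knockout mouse 2 had the highest fibroblast sum, and P4ha1 was highest in knockout mouse 5. Among the controls, mice 6 and 4 stood highest on both, with sums of 5045 and 4595 CPM and P4ha1 at 39.3 and 47.2 CPM. The part of fibroblast content in the P4ha1 difference was not tested.

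Bnip3 ran from 42.8 through 58.5 to 87.7 CPM in the knockout and from 30.1 through 36.5 to 49.8 CPM in the control. All knockout mice but mouse 5 stood above every control. The means were 60.6 ± 15.4 and 39.3 ± 7.50 CPM (SD, n = 6), for a log2 fold change of 0.62 ± 0.17 (SE). The edgeR adjusted p was 0.0636 and became 0.0435 without knockout replicate 4, where 6.02% of all genes were called higher. That was 1 of the 12 fits with 1 library left out, over which the adjusted p of Bnip3 ran up to 0.148. In deposited TPM, the lowest Bnip3 level of the knockout, 53.8, lay just above the highest of the control, 53.7. The groups overlapped in CPM, and the share of all genes that separate fully in TPM was not counted. The exact permutation p of log2(TPM + 1) was 0.00216, or 0.130 adjusted over all tested genes, the smallest adjusted value that any gene had. Its close relative Bnip3l, which also recruits the autophagy machinery to mitochondria, stood at 118 ± 22.4 against 108 ± 15.3 CPM and a log2 fold change of 0.12 ± 0.14 (SE). In the list of 10 hypoxia-inducible mitochondrial and autophagy genes that holds Bnip3l, 9 were above 0 (median 0.41), 5 had an unadjusted edgeR p under 0.05 upward and 0 passed. Hilpda, a lipid droplet protein, was at 0.71 ± 0.24 (log2 fold change, SE), Higd1a at 0.24 ± 0.14 and Mxi1, a Myc antagonist, at -0.16 ± 0.10.

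Adm was one of the less abundant members, with 11.7 through 20.1 to 29.3 CPM in the knockout and 8.73 through 11.1 to 17.0 CPM in the control. Knockout mice 1, 2 and 3, at 24.4, 24.5 and 29.3 CPM, exceeded every control, and control mouse 4, at 17.0 CPM, exceeded the other 3 knockout mice. The means were 19.8 ± 7.19 and 11.7 ± 3.13 CPM (SD, n = 6), for a log2 fold change of 0.75 ± 0.24 (SE) with an edgeR adjusted p of 0.0932. Leaving out knockout replicate 4 gave 0.87 (edgeR adjusted p = 0.0376), and leaving out control replicate 4 gave 0.89 (0.0484). In those fits 6.02% and 5.03% of all genes were called higher. Adm passed in 2 of the 12 fits with 1 library left out, and its adjusted p ran up to 0.198. The receptor for adrenomedullin is made of Calcrl with Ramp2 or Ramp3. Calcrl was at 0.54 ± 0.29 (log2 fold change, SE), Ramp2 at 0.57 ± 0.21 and Ramp3 at 0.74 ± 0.36, and none passed.

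The neutrophil markers (S100a8, S100a9, Csf3r, Cxcr2, Ly6g, Mmp8 and Retnlg) followed the same order of mice as Adm in part. Their summed level was 643, 1083 and 1219 CPM in knockout mice 1, 2 and 3, between 250.3 and 272 CPM in knockout mice 4, 5 and 6, and 567 CPM in control mouse 4, with 128 to 226 CPM in the other controls. All 7 had a log2 fold change above 0 (median 1.81), 5 with an unadjusted edgeR p under 0.05, and none was at 0 in any library. Their part in the Adm difference was not tested.

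Ddit4 ran from 42.8 through 68.1 to 93.0 CPM in the knockout and from 39.5 through 42.8 to 55.3 CPM in the control. Knockout mice 1 to 4 stood above every control and mice 5 and 6 within the control range. The means were 68.4 ± 21.1 and 45.9 ± 6.63 CPM (SD, n = 6), for a log2 fold change of 0.57 ± 0.19 (SE) with an edgeR adjusted p of 0.0926. Ndrg1 ran from 175 through 307 to 403 CPM in the knockout and from 213 through 241 to 281 CPM in the control. Mice 2, 3 and 4 of the knockout exceeded every control, and mice 5 and 6 lay below every control, so the genotype means of 297 ± 101 and 242 ± 27.3 CPM (SD, n = 6) gave a log2 fold change of 0.29 ± 0.20 (SE), for which edgeR's adjusted p was 0.41. The Ndrg1 value was 0.19 without knockout replicate 2 and 0.19 without knockout replicate 3. It was 0.39 without knockout replicate 5 and 0.41 without knockout replicate 6. Of the Ndrg1 relatives, Ndrg2 was at -0.10 ± 0.15, Ndrg3 at -0.18 ± 0.10 and the neuronal Ndrg4 at 0.61 ± 0.19 (log2 fold change, SE), and none passed.

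Ankrd37 was the lowest member, with 5.68 through 7.36 to 13.9 CPM in the knockout and 3.87 through 6.67 to 12.5 CPM in the control. Its highest mouse was knockout mouse 4, and the other 5 knockout mice lay inside the control range. The means were 8.13 ± 2.92 and 7.20 ± 2.99 CPM (SD, n = 6), for a log2 fold change of 0.18 ± 0.28 (SE) with an edgeR adjusted p of 0.76. Without knockout replicate 4 the sign turned, to -0.045, and the value was 0.41 without control replicate 2, 0.050 without control replicate 4 and 0.11 without control replicate 6.

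**Figure D3:**
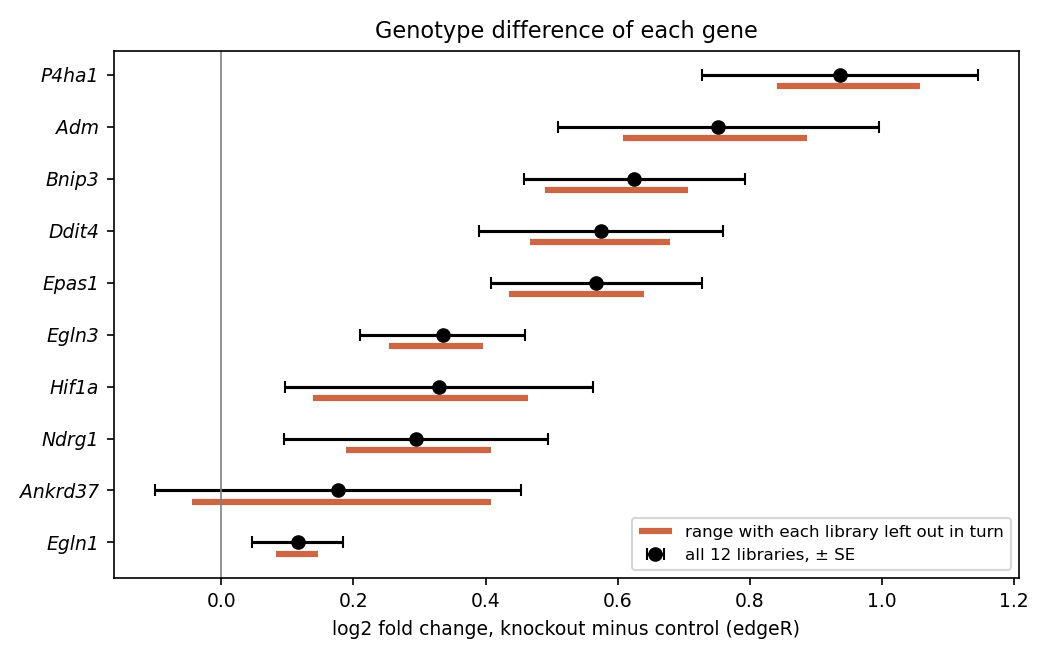
Log2 fold change of each gene, knockout minus control, with its SE (black), and the range of values when each of the 12 libraries is left out in turn (bar below). All 10 points lie above 0, from 0.12 for Egln1 to 0.94 for P4ha1, and the Ankrd37 bar alone crosses 0.

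The members did not follow one order of mice. In the knockout, mouse 3 was the highest of all 12 on Hif1a, Egln3, Bnip3, Adm, Ddit4 and Ndrg1, and the lowest knockout on P4ha1. Mice 5 and 6 were the 2 lowest knockout mice on Ddit4, at 47.4 and 42.8 CPM, and on Ndrg1, at 192 and 175 CPM. On P4ha1 the same mice were the highest and the third highest of the knockout. Mouse 4 was the lowest of all 12 on Hif1a and the highest on Ankrd37. In the control, mouse 4 was the highest of its group on Hif1a, Epas1, P4ha1 and Adm, and the lowest of all 12 on Ankrd37 and Egln1.

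Knockout mice varied more than controls on most of the genes. The SD of log2 CPM was larger in the knockout for 9 of 10 members, all but Ankrd37, and for 66.6% of all tested genes. For Ndrg1 it was 0.53 in the knockout and 0.16 in the control, for Epas1 0.39 and 0.14, for Ddit4 0.465 and 0.201, and for Hif1a 0.565 and 0.312.

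**Figure D4:**
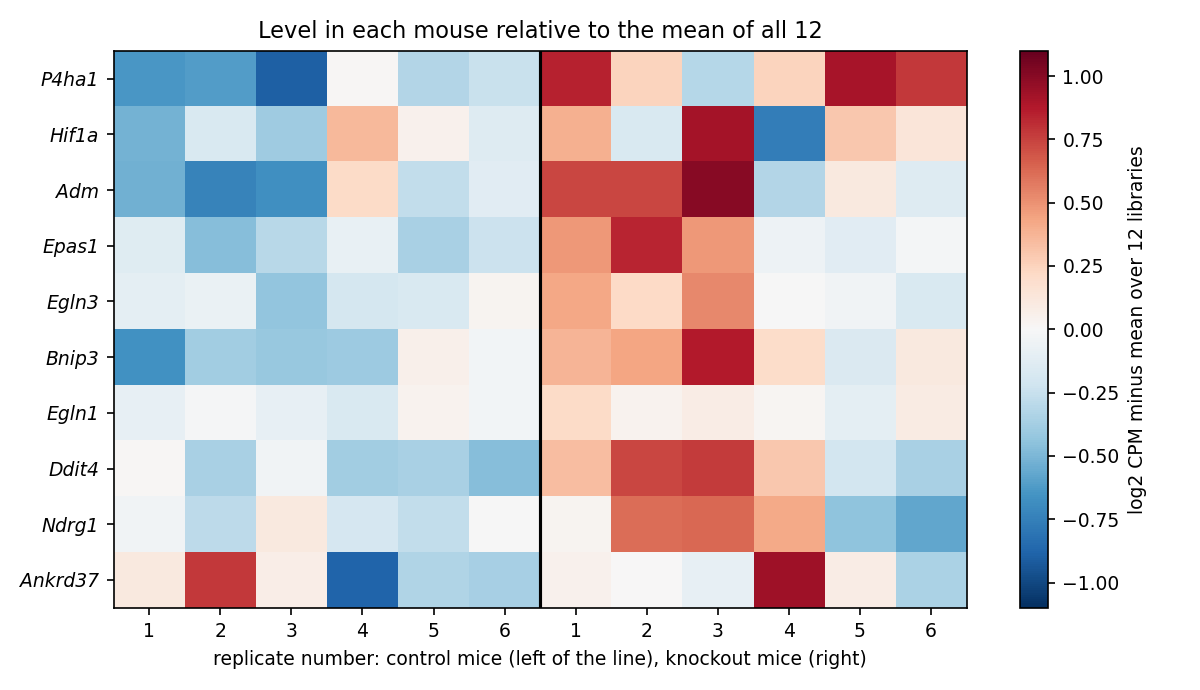
Log2 CPM of each gene (rows) in each mouse (columns) minus the mean over 12 libraries; red is above and blue below the mean, with controls left and knockouts right of the line. The P4ha1 row is reddest in knockout mice 1, 5 and 6, whereas the Ddit4 and Ndrg1 rows are reddest in knockout mice 2 and 3.

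**Figure D5:**
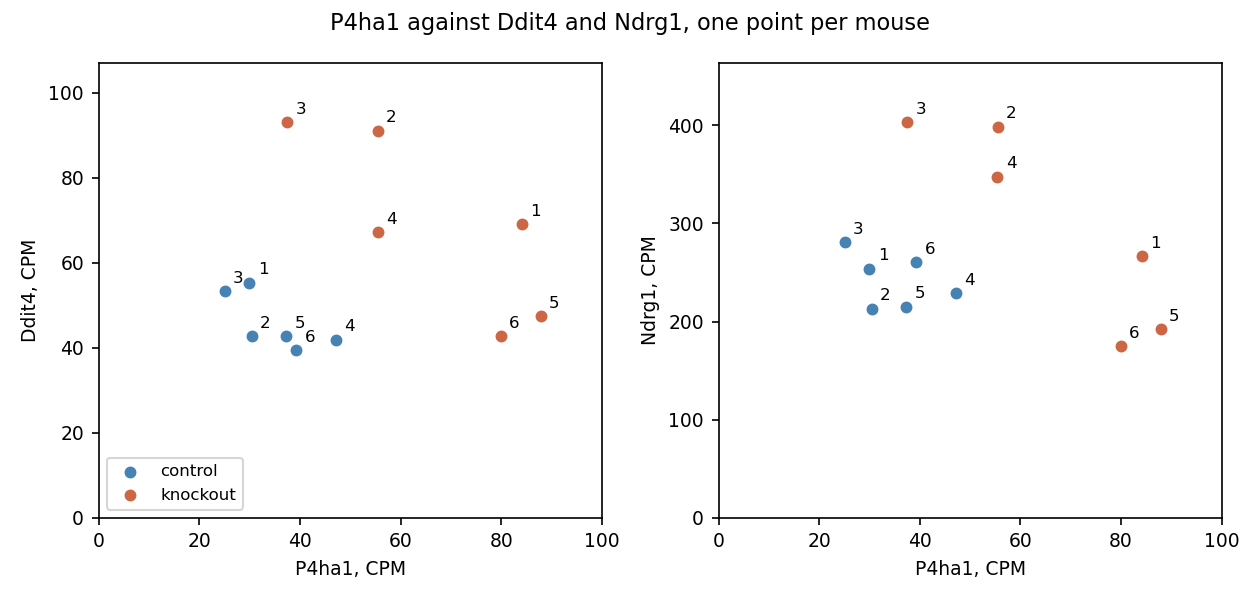
P4ha1 (x axis, CPM) against Ddit4 (left) and Ndrg1 (right, y axes, CPM), with 1 point per mouse labelled by replicate number. Among the knockout mice, mouse 3 lies at 37.5 CPM of P4ha1 and 93.0 CPM of Ddit4, and mouse 6 at 79.9 and 42.8 CPM.

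The genes whose levels ran most like a member were ranked by Pearson's r of log2 CPM over 12 libraries after subtraction of each genotype's mean. They were picked as the highest of all tested genes, so a high r is a property of the choice. For P4ha1 the first was Pmepa1 (r = 0.97), followed by Lst1 and Cxcl10. For Adm they were Adamts1 (0.95), Ier3 and Pde4b, for Ndrg1 they were Eci2 (0.97), Cpa6 and Dgkq, and for Ddit4 they were Scgn (0.94) and Dnm2. For Epas1 they were Rdh12 (0.96), Susd6 and Cdk5r2, and for Hif1a Mctp1 (0.92), Casp8 and Azin1. For Bnip3 they were Ranbp9 (0.90), C9orf72 and Abca6, for Egln3 Spata6 (0.94), Hecw2 and Trpm3, for Egln1 Hsf2 (0.86), Tada2b and Selenok, and for Ankrd37 Fzd5 (0.89), Dhrs4 and Cdo1. No gene appeared for more than 1 member.

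Levels of different genes can be set side by side on the deposited TPM scale, which divides by gene length. In the control the order of mean TPM was Ndrg1 (152), Hif1a (118), Epas1 (65.5), Egln3 (64.0), Ddit4 (47.4), Bnip3 (45.0), Egln1 (29.5), P4ha1 (20.7), Adm (15.3) and Ankrd37 (14.1). Neighbours closer than the larger of their SDs were Epas1 and Egln3, Ddit4 and Bnip3, and Adm and Ankrd37. In the knockout the order was the same except that P4ha1, at 41.8 ± 14.2 TPM, stood before Egln1, at 33.4 ± 2.79 TPM (SD, n = 6). Most neighbours in the knockout order were closer than the larger of their SDs: Ndrg1 and Hif1a, Epas1 and Egln3, Egln3 and Ddit4, Ddit4 and Bnip3, P4ha1 and Egln1, and Egln1 and Adm. P4ha1 exceeded Egln1 in TPM in 5 of 6 knockout libraries and in 1 of 6 control libraries. Among the control means of the partner genes, Egln2, the third hydroxylase, was at 55.3 TPM, Arnt, the shared beta subunit, at 27.9 TPM, Hif1an, which blocks coactivator binding, at 24.8 TPM and Vhl at 15.1 TPM.

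The rest of the HIF machinery differed little between the genotypes. Of 16 genes, 0 passed over all genes tested and 1, Hif3a, had an unadjusted edgeR p under 0.05, with a median log2 fold change of 0.04. Hif3a, whose product can restrain HIF, was at 9.06 ± 2.61 against 5.39 ± 1.42 CPM (means of knockout and control, each with SD, n = 6), with a log2 fold change of 0.75 ± 0.22 (SE), for which edgeR's adjusted p was 0.0771. Arnt was at 0.07 ± 0.11, Arnt2 at 0.39 ± 0.37, Egln2 at 0.00 ± 0.10 and Hif1an at -0.03 ± 0.11 (log2 fold change, SE). The Vhl ligase was at 0.10 ± 0.07, and its partners Cul2, Elob, Eloc and Rbx1 at -0.18 ± 0.15, -0.00 ± 0.09, 0.01 ± 0.14 and 0.02 ± 0.07. The coactivators Ep300 and Crebbp were at 0.06 ± 0.07 and 0.07 ± 0.10, and Cited2, which competes with HIF for them, was at 0.24 ± 0.12. Siah1a and Siah2, ligases that act on the Egln enzymes, were at 0.02 ± 0.13 and 0.17 ± 0.14, and the scaffold Limd1 at 0.00 ± 0.09.

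Across 5 further lists of hypoxia-inducible genes, 73 of 74 genes were tested, and 64 had a log2 fold change above 0 (median 0.33). Over all genes tested 0 passed, beside 0.0278% of all genes higher; 34 were higher and 2 lower at an unadjusted edgeR p under 0.05, beside 13.1% and 9.48% of all genes. Without knockout replicate 4, 16 of the 73 passed upward, where 6.02% of all genes did, and without control replicate 4 it was 14, where 5.03% did. Without control replicate 6 it was 6, where 1.88% did. The gene not tested was Epo, which had 0 counts in every library.

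The lists differed among themselves. Genes of glycolysis and pH control held 9 of 23 higher and 2 lower at an unadjusted edgeR p under 0.05, with a median of 0.15. In this list Pfkfb3, which makes the activator of phosphofructokinase, had a log2 fold change of 1.28 ± 0.30 (SE), and Slc16a3, a lactate exporter, 0.89 ± 0.20. The glucose transporter Slc2a1 was at 0.42 ± 0.14, Ldha at 0.15 ± 0.09, the carbonic anhydrase Car9 at 0.20 ± 0.09 and Pdk1, which holds pyruvate back from mitochondria, at 0.02 ± 0.12. Genes of vessel and oxygen supply were above 0 in 11 of 11 tested, 5 of them at an unadjusted edgeR p under 0.05, with a median of 0.54. Vegfa, the main angiogenic factor, was at 56.8 ± 17.5 against 44.0 ± 4.28 CPM. Beside this list, all 8 endothelial markers were above 0 too, with a median of 0.62. The part of endothelial content in the vessel list was not tested. In the list of chromatin, transcription and other genes 8 of 20 were higher at an unadjusted p under 0.05 (median 0.21), with the transcription factor Nfil3 at 1.55 ± 0.26, the secreted Stc2 at 0.35 ± 0.16 and the histone demethylase Kdm3a at 0.07 ± 0.08.

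Targets known from intestinal epithelium did not share a direction. Of 7 barrier genes 3 were above 0 and 4 below (median -0.21), and 2 were higher and 1 lower at an unadjusted edgeR p under 0.05. Muc3, a membrane mucin and the most abundant of them, stood at 5031 ± 793 against 5812 ± 1530 CPM (means of knockout and control, each with SD, n = 6), and Tff3, the trefoil peptide of goblet cells, at 304 ± 56.8 against 373 ± 65.4 CPM. Of 6 iron genes, several of them targets of HIF-2, 2 were above 0 and 4 below (median -0.06). The 2 above 0 were the ferritin heavy chain Fth1 at 0.84 ± 0.20 (log2 fold change, SE) and the transferrin receptor Tfrc at 0.08 ± 0.25. The 4 below were Slc11a2 at -0.02 ± 0.09, Cybrd1 at -0.27 ± 0.22, Slc40a1 at -0.18 ± 0.13 and Heph at -0.11 ± 0.08. None of the 6 passed. Epithelial markers were lower in 5 of 10 at an unadjusted p under 0.05, with a median of -0.21, a summed level of 12747 to 18197 CPM in the knockout and 14117 to 18813 CPM in the control, and none at 0. The part of epithelial content in these differences was not tested.

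By the authors' deposited table, 5 of the 10 genes had an adjusted p under 0.05, where 4.65% of the 21899 genes were higher at that threshold. In the authors' deposited table the adjusted p was 0.00207 for P4ha1, 0.0125 for Bnip3, 0.0133 for Epas1, 0.0382 for Adm and 0.0383 for Ddit4. DESeq2's Wald test on the same counts called the same 5 genes, with adjusted p values of 0.00161, 0.00992, 0.0103, 0.0308 and 0.0296 in that order, and 7.98% of the genes to which it gave an adjusted p were called higher. In the edgeR fit, scaling by library size only called P4ha1 and Bnip3 (adjusted p 0.0463 for each), where 1.6% of all genes were called higher. Leaving out both mice numbered 4 called Epas1, P4ha1 and Adm, where 8.4% were.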

How the data were processed

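Colon RNA of 12 DSS-treated mice was analysed, 6 per genotype. Groups and replicate numbers came from the labels. Per the labels' protocols, Trizol and a SMARTER mRNA-Seq kit were used. Per the file headers, the table the authors deposited holds raw read counts and TPM per library, mean TPM per genotype, a log2 fold change, a p-value and an adjusted p-value. Which test, aligner and counter were used, and whether counting used strand, was not given in the sources used here. The submitters' processing notes list GRCm38, mm10 and mm39 without roles, so no gene coordinates are printed and promoter coordinates are those of the RefSeq table. The table held 0 columns of other samples.

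The count analysis ran in edgeR 4.0.16 under R 4.3.3: filterByExpr (minimum count 10, minimum total 15), TMM scaling, and the quasi-likelihood F test of genotype over 12 libraries with no covariate, adjusted by Benjamini-Hochberg over 14393 genes at 0.05. SEs were derived from the fold change and F. Exact two-sided permutation tests used log2 CPM (prior count 2) over 924 arrangements and were run and adjusted over all tested genes. At the smallest possible permutation p, 0.00216, the adjusted p was 0.131, so no gene could pass 0.05 by this test. Alternatives were DESeq2 1.42.0, limma 3.58.1 voom, other scalings and filters, robust estimation, a replicate block and each library left out; leaving out both mice numbered 4 was chosen after seeing the data. Where a symbol had 2 rows (Aldoa, Ddit3) the row with more counts was used. In simulated data with 14320 genes for this comparison, the procedure called 96.9% of genes changed by 2 on the log2 scale, 58.8% of those changed by 1 and 0.0637% of unchanged genes.

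The members and all lists were chosen with earlier results of these data known. Named genes were, by rule, the members, Pck1, the HIF machinery, 21 textbook HIF target and adrenomedullin receptor genes and list genes past the threshold. The rule also covered the 2 most abundant genes of the remaining lists and the Ndrg and prolyl 4-hydroxylase families. The 3 genes most like each member fell under it as well. Lox, Loxl2, Cldn1, Adora2b, Abcb1a, Slc11a2, Cybrd1, Slc40a1, Heph and the single markers are named outside this rule, with their values known. Some genes the rule names are not reported here. The lists were described by counts and medians with no set test. The labels call the mice separate samples, and p-values measure the spread between them. The lowest chi-square per gene between any 2 of the libraries (66 combinations) was 16.9, so none were alike within counting noise.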

Additional observations from a re-analysis of the deposited data

Results flagged for a closer look

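The level of Ankrd37 in the knockout libraries held 1 mouse far from the others. Knockout mouse 4 stood at 13.9 CPM and the next highest at 7.66 CPM, so the gap was 0.759 of the range of the 6 mice, above Dixon's 95% critical value. Of 20 groups checked (10 genes in 2 genotypes) this 1 stood out, and chance gives about 1 in 20.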

How the results depend on the processing

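No member was called lower under any setting. Members called higher numbered 0 with DESeq2's size factors, upper quartile scaling, either other filter, voom, robust estimation or the replicate block, 2 with library size only, 5 with DESeq2's test and 3 without both mice numbered 4; leaving out each library in turn gave 0 to 4. Over all genes 4 were called higher and 4 lower; with DESeq2's size factors these counts were 33 and 19, with library size only 230 and 45, with DESeq2's test 1103 and 429, with voom 30 and 19, with robust estimation 32 and 21, and without both mice numbered 4 they were 1209 and 702. With each library left out they ran from 0 to 870 higher and from 2 to 402 lower, the high counts coming without knockout replicate 4, control replicate 4 or control replicate 6. With the replicate number as a block, 0 genes were higher and 1 lower, and the smallest edgeR adjusted p of a member was 0.259. Same-numbered mice did not deviate together (correlations of -0.496 to 0.0776). The labels do not say whether a number marks a litter. Ankrd37 ran from -0.045 (without knockout replicate 4) to 0.41 with each library left out, beside 0.18 with all, and turned to -0.17 without both mice numbered 4; the cause was not tested. The other 9 members stayed above 0 in all 22 alternatives. Members higher at an unadjusted p under 0.05 numbered 5 to 7 over these. By exact permutation, the smallest possible p gave an adjusted p of 0.131 in log2 CPM and 0.130 in log2(TPM + 1). No gene could therefore pass on either scale. The members also stayed above the threshold with a prior count of 0.5, and no conclusion on stability is drawn from this test. How far depth limits the calls was not tested; the members held between 63 and 9292 counts in a library.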

Other observations

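Ddit4 also answers to glucocorticoids and to the ATF4 stress pathway, and lists of both ran higher in the knockout. Of 8 glucocorticoid-responsive genes all were above 0 (median 0.75), 1 rose over all genes tested and 4 had an unadjusted edgeR p under 0.05. Zbtb16, the transcription factor PLZF, was the one that rose, with a log2 fold change of 2.24 ± 0.33 (SE), for which edgeR's adjusted p was 0.0407. Fkbp5, a chaperone of the glucocorticoid receptor, stood at 212 ± 73.2 against 108 ± 18.6 CPM and Sgk1, a kinase, at 114 ± 63.9 against 77.0 ± 21.4 CPM (means of knockout and control, each with SD, n = 6). The summed level of the list was highest in knockout mice 3 and 2, at 990.2 and 847 CPM, which were also the 2 highest on Ddit4, and lowest among the knockout in mouse 6, at 337 CPM, which was also the lowest there on Ddit4. The controls did not share this order: control mouse 1, the highest of its group on Ddit4 at 55.3 CPM, had a sum of 329 CPM, and control mouse 5, with the highest sum at 459 CPM, had 42.7 CPM of Ddit4. Of 8 ATF4 and stress genes 7 were above 0 (median 0.41), 4 at an unadjusted p under 0.05, with Atf4 itself at 0.17 ± 0.09 and Asns, asparagine synthetase, at 0.44 ± 0.20. Of 6 tested genes that brake mTORC1 alongside Ddit4, 2 were above 0 and 4 below (median -0.13), with Deptor at -0.25 ± 0.15 and Tsc2 at -0.06 ± 0.11. The part of these pathways in the Ddit4 difference was not tested.

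Markers of the remaining cell types were read in the same libraries. Enteric neuron and glia genes were above 0 in 6 of 7 (median 0.50, with Vip at 1.25 ± 0.23 and Tubb3 at 1.16 ± 0.24), monocyte and macrophage genes in 8 of 8 (median 0.44, with Lyz2 at 0.30 ± 0.18 and C1qb at 0.44 ± 0.14) and erythroid genes in 5 of 5 (median 0.91, with Hbb-bs at 0.91 ± 0.47 and Hba-a2 at 0.86 ± 0.47), given as log2 fold change and SE. Smooth muscle genes were below 0 in 6 of 6 (median -0.37, with Tagln at -0.28 ± 0.17 and Acta2 at -0.13 ± 0.15). Exocrine pancreas genes, which colon does not make, summed to between 1.23 and 17104 CPM in the control and between 1.79 and 1198 CPM in the knockout, and the highest library was control mouse 6. None of these lists had a member past the threshold over all genes.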
